A study of Mus musculus with 12 samples.

Results

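The transcripts of the mitochondrial genome were examined in soleus, a slow postural muscle rich in mitochondria, from mice of 4 groups. All genes whose symbol starts with mt- were taken, which gave 33 of the 28997 genes in the deposited tables. They comprised 13 protein genes, 2 rRNA genes and 18 of the 22 tRNA genes of the annotation, and each of the 33 matched 1 gene of chrM in GENCODE M21 on GRCm38. The tRNA genes mt-Tf, mt-Ty, mt-Ts2 and mt-Tl2 were not analysed here. Of the members, 19 had a total of at least 100 normalised reads over the 12 libraries, namely every protein gene, both rRNA genes and 4 tRNA genes, and the other 14 tRNA genes lay below it.

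The labels describe Cdh5cre-WT and Cdh5Cre-NOX1CKO mice kept on chow or on high-fat food over 8 weeks, with 3 animals in each of the 4 groups. Per the series title, the study asked how endothelial NOX1 bears on obesity and on the mitochondria of skeletal muscle. Cdh5 drives Cre in endothelial cells, so the conditional loss of NOX1, an NADPH oxidase, concerned a minority of the cells in a muscle, and every group, controls included, carried the Cre by its label. The deposited comparisons name the groups G1, G2, G3 and G4, and since no source used here says which genotype and food each code stands for, the codes are kept throughout. The libraries were made with a stranded mRNA kit. The deposited totals are reads divided by library size factors and summed over the libraries, 298.9 M in all (1 M is 1000000 reads) or 24.9 M per library on average. Apart from whole reads solved for 13 tRNA genes with low totals and for Nox1, values per animal were not analysed here. Group means therefore carry no SD, and errors are standard errors implied by each deposited fold change and its p-value.

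Mammalian mitochondrial DNA is a small circle copied and read inside the organelle. The RNA polymerase POLRMT, with TFAM, transcribes each strand as a long precursor, and tRNAs that stand between the other genes are cut out of it to free the mRNAs and rRNAs. The proteins encoded there are core subunits of respiratory complexes I, III and IV and of the ATP synthase, complex V, and all of their partners come from the nucleus. Fragments of mitochondrial DNA have also been inserted into nuclear chromosomes during evolution, and such copies can carry almost the same sequence.

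The labelled tissue was checked first. The 8 skeletal muscle markers were all measured and summed to 66987, 73777, 64157 and 67453 CPM (counts scaled to the sum of all genes) in G1, G2, G3 and G4, whereas the cardiac pair Myh6 and Nppa summed to 28.3, 37.8, 27.2 and 31.3. Nox1 had 26 reads over the 12 libraries, with 6, 10, 5 and 5 from G1 to G4, so it could not check the labels. Endothelial markers summed to 482, 454, 480 and 519 CPM and erythroid markers to 179, 114, 168 and 148 in the same order.

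A stretch of chromosome 1 held copies of 7 mitochondrial genes that received a large number of reads. A search of all other reference transcripts with the mitochondrial ones, at 90% identity or more over at least 100 bases, found 17 nuclear copies, of which 16 were in the tables. The 7 on chromosome 1 lay side by side on the minus strand at chr1:24611535-24616197 (GRCm38), in the order of the genes they resemble, and took 11.4 M normalised reads, or 3.82% of all. The other 9 were 90.7% to 97.6% identical to their mitochondrial genes and took 12358 reads together.

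The copies on chromosome 1 differed from the mitochondrial genes at 0 or 1 base of the aligned stretch. Gm28661 matched mt-Co2, which encodes a core subunit of cytochrome c oxidase, over 681 bases with 0 mismatches, and the first 60 bases are shown for both to make clear that a read from here could come from either.
mt-Co2: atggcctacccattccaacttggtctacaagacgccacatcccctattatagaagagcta
Gm28661: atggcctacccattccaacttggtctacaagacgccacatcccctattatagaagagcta
Gm28438 matched mt-Nd3, a complex I subunit, over 345 bases with the single substitution T3C, counted from the first base of the gene and capitalised here.
mt-Nd3: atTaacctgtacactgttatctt
Gm28438: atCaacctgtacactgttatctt
Gm29216 matched 483 of the 1545 bases of mt-Co1, the gene of the main catalytic subunit of cytochrome c oxidase, with the single substitution A1066T.
mt-Co1: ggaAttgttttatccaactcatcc
Gm29216: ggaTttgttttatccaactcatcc
The mitochondrial base comes first in both substitutions, and the sequences are those of GENCODE M21 transcripts on GRCm38.

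Where a copy spanned nearly the whole gene without a mismatch, the reads were divided evenly in 3 of 4 pairs. Gm28437 held 50.0% of the reads of its pair with mt-Co3, at 2.766 M each. Gm10925 held 50.0% of its pair with mt-Atp6, the proton channel subunit of the ATP synthase, and Gm28661 held 50.1% of its pair with mt-Co2. These shares stayed between 50.0% and 50.1% in every group.

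The remaining pairs were uneven. Gm28438 held 57.6% of its pair with mt-Nd3, so that the copy held more reads than the mitochondrial gene. Gm10222 held 35.1% of its pair with mt-Nd4l, although it matched over 294 bases with 0 mismatches. Gm29216, which covers the last part of mt-Co1, held 11.3% of that pair. Gm28439 matched 876 of the 1378 bases of mt-Nd4 with 0 mismatches and yet took 644 reads against 7.38 M, or 0.00872%. The values of mt-Co2, mt-Co3, mt-Atp6, mt-Nd3, mt-Nd4l and mt-Co1 are therefore uncertain as levels, since reads of such pairs cannot be told apart over their shared bases.

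**Figure D1:**
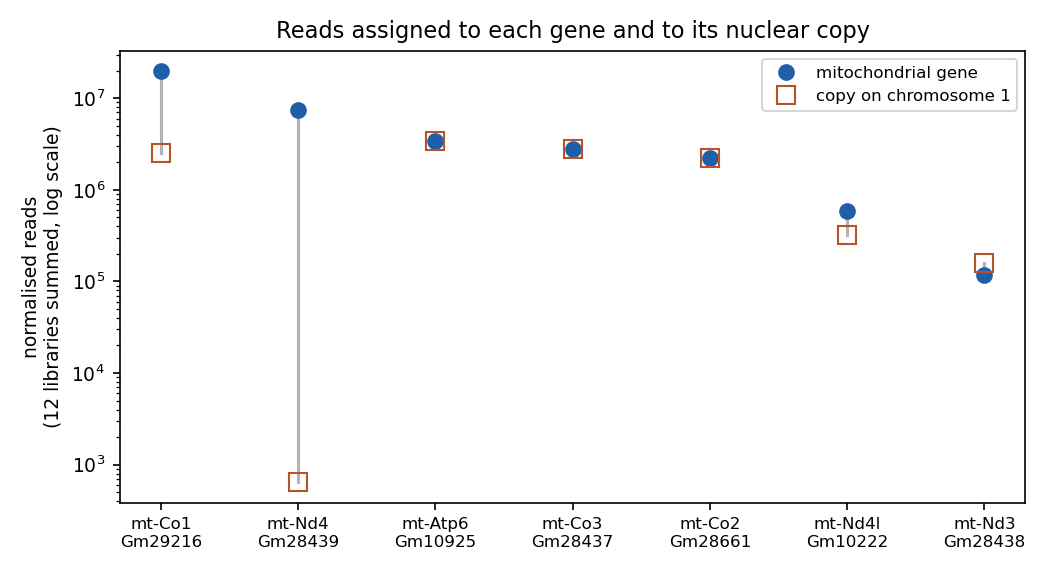
Normalised reads summed over 12 libraries (log scale) for 7 mitochondrial genes (filled circles) and their copies on chromosome 1 (open squares), joined by a line. The symbols coincide for mt-Atp6, mt-Co3 and mt-Co2, the copy is above the gene for mt-Nd3, and Gm28439 lies at 644 reads far below mt-Nd4.

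Mitochondrial transcripts made up 20.1% of all normalised reads, 60.07 M of 298.9 M, and 23.9% with the copies on chromosome 1 added. Of the 25 genes with the highest totals, 9 were members and 4 were copies. The protein genes held 98.2% of the members' reads, the rRNA genes 1.82% and the tRNA genes 5279 reads in all, which is 0.00177% of all reads. Both rRNAs are structural parts of the mitochondrial ribosome and abundant in cells, and mRNA kits capture RNA by its poly(A) tail. The tRNA genes are also short, from 65 bases for mt-Tk to 75 for mt-Tl1. The part of that capture, and of this short length, in the low rRNA and tRNA values was not tested.

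By complex, the 3 genes of complex IV held 24.66 M reads, or 41.0% of the members' total, and the 7 genes of complex I held 22.85 M, or 38.0%. mt-Cytb, the single mitochondrial gene of complex III, held 12.9% alone, and the 2 genes of complex V held 6.23%. mt-Co1 had the highest total of all 28997 genes, 19.67 M reads or 6.58% of the whole.

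Per kilobase of annotated gene, with no correction for fragment length, reads spanned a wide range although the genes of a strand share a precursor. mt-Co1 stood at 12.7 M normalised reads per kb, mt-Cytb at 6.76, mt-Nd4 at 5.36, mt-Atp6 at 5.05, mt-Nd1 at 4.91, mt-Nd2 at 4.05, mt-Co3 at 3.53, mt-Co2 at 3.24 and mt-Nd5 at 3.16. Below them came mt-Nd4l at 2.0, mt-Atp8 at 1.5, mt-Nd3 at 0.335 and mt-Nd6 at 0.184 M per kb. The step from mt-Co1 to mt-Co2 was 3.93-fold and that from mt-Co1 to mt-Co3 was 3.61-fold. Adding the copies changed this order. mt-Atp6 moved from rank 4 to rank 2 at 10.1 M per kb, mt-Co3 from 7 to 3 at 7.06 and mt-Co2 from 8 to 5 at 6.49, while mt-Co1 stayed at rank 1 with 14.4. The step from mt-Co1 was then 2.21-fold to mt-Co2 and 2.03-fold to mt-Co3.

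**Figure D2:**
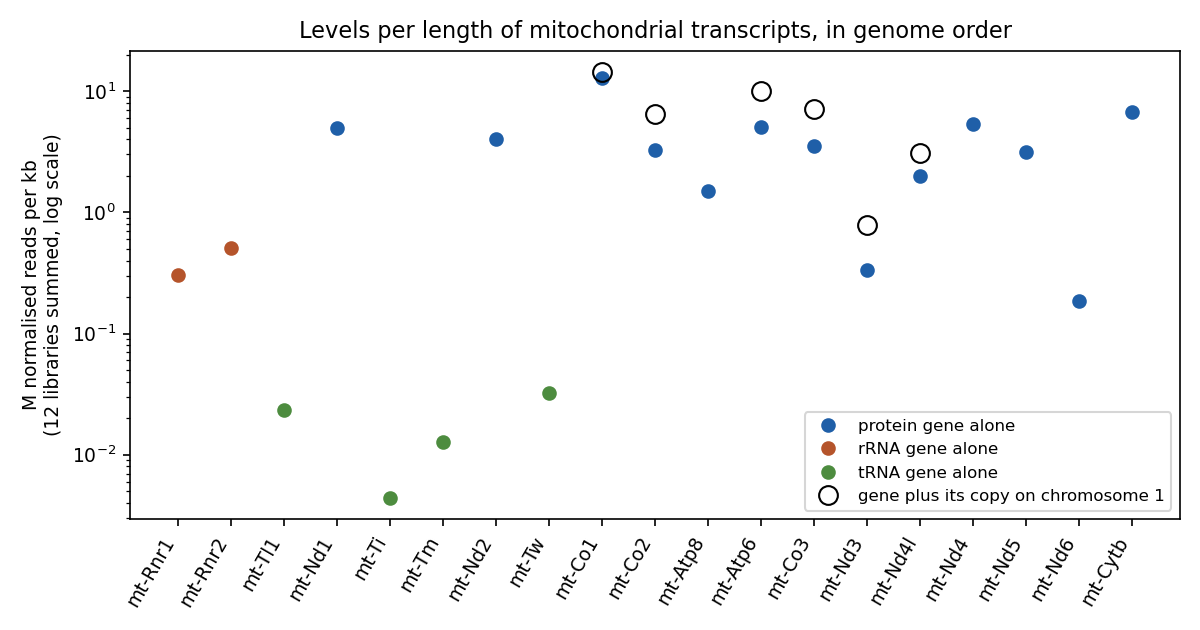
Normalised reads per kb of gene, summed over 12 libraries (log scale), for the 19 members with a total of at least 100, in genome order. Filled circles are the genes alone by class and open circles add the copy on chromosome 1. mt-Co1 is highest at 12.7 M per kb, mt-Nd6 is the lowest protein gene at 0.184 M per kb, and the 4 tRNA genes lie lower still, with mt-Tw the highest of them at 0.0322 M per kb.

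The strands differed far more than the complexes. The annotation places 25 members on the plus strand, including 12 protein genes and both rRNAs, and 8 on the minus strand, which are mt-Nd6 and 7 tRNA genes. The minus strand held 0.159% of the members' reads, nearly all of it mt-Nd6, a complex I subunit and the only protein gene read from that strand. mt-Nd6 overlaps the end of mt-Nd5 on the opposite strand by 14 bases, and per kb mt-Nd5 was 17.2-fold higher. The lowest plus-strand protein and rRNA genes were nearer, mt-Nd3 at 0.335 and mt-Rnr1 at 0.301 M per kb against 0.184 for mt-Nd6. The part of poly(A) capture in the difference between strands was not tested. The minus-strand tRNA genes held 99.9 reads in total over the 12 libraries. The kit marks the strand, but the sources used here do not give the strand setting of the counting.

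Neighbouring genes that lie on a shared mRNA did not have equal reads per kb. mt-Atp8 and mt-Atp6, both subunits of the ATP synthase membrane part, overlap by 43 bases (chrM:7927-7969), capitalised here at the end of mt-Atp8, where the start codon of mt-Atp6 lies inside the reading frame of mt-Atp8.
mt-Atp8: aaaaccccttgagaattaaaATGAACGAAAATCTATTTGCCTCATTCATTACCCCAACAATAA
mt-Nd4l and mt-Nd4, both complex I subunits, overlap by 7 bases in the same way.
mt-Nd4l: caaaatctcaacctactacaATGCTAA
mt-Atp6 was 3.37-fold higher per kb than mt-Atp8, and 6.73-fold higher with Gm10925 added. mt-Nd4 was 2.68-fold higher per kb than mt-Nd4l, and 1.74-fold higher with both copies added. Reads over shared bases are assigned between the genes by the counting. The lengths used were the full annotated ones, 204 bases for mt-Atp8 and 297 for mt-Nd4l. They were not corrected for the length of library fragments, which matters most for short genes. These ratios are therefore uncertain and need not be ratios of RNA level. No nuclear copy of mt-Atp8 was found at the search limits, although the copies of its neighbours mt-Co2 and mt-Atp6 flank that place on chromosome 1. The search covered reference transcripts only, so a copy without an annotated transcript could not be found. Each nuclear transcript was also credited only to the mitochondrial gene of its longest match, so a shorter match to mt-Atp8 would not appear.

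In 3 genes the annotated mRNA ends 1 base past its last whole codon. Mammalian mitochondria are known to complete such stop codons by adding the poly(A) tail to the final T, which is capitalised in the last bases of mt-Co3, mt-Nd4 and mt-Cytb.
mt-Co3: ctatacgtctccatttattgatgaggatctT
mt-Nd4: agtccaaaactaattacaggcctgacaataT
mt-Cytb: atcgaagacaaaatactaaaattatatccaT
All 3 were among the well represented genes, with 2.77, 7.38 and 7.73 M reads. The tail itself is not in the genome, and its length was not measured.

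mt-Rnr2, the large ribosomal RNA, stood at 0.507 M reads per kb and mt-Rnr1, the small one, at 0.301, a 1.68-fold step. Per kb mt-Co1 was 25.1-fold above mt-Rnr2. Both rRNA genes had rebuilt group means within a narrow range, 62604 to 69921 reads per library for mt-Rnr2 and 23269 to 25767 for mt-Rnr1.

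Most tRNA reads fell on 4 of the 18 genes. Those for tryptophan (mt-Tw, 2154 reads), leucine (mt-Tl1, 1771), methionine (mt-Tm, 885) and isoleucine (mt-Ti, 306) passed a total of 100, and all 4 lie on the plus strand around mt-Nd1 and mt-Nd2. They are printed because they hold nearly all tRNA reads, with capitals for bases that a neighbouring gene shares.
mt-Tl1: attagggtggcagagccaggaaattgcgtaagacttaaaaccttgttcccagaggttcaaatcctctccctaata
mt-Ti: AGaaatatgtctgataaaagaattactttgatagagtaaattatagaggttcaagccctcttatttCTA
mt-Tm: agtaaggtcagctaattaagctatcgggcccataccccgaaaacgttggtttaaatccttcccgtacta
mt-Tw: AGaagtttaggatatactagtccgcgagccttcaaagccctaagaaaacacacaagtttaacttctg
The first 2 bases of mt-Ti are the last of mt-Nd1, and the first 2 of mt-Tw are the last of mt-Nd2. The 3 final bases of mt-Ti overlap mt-Tq on the other strand.

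The remaining tRNA genes were close to undetected. For the 13 with a total below 30, the total had 1 solution in whole reads, which gave 1 to 30 reads per gene and 107 in all, with 24, 27, 30 and 26 from G1 to G4. mt-Tg, for glycine, had 30 reads, of which 14 were in G3 and 9 of those in a single library. mt-Tp, for proline, had 24 reads, 8 of them in G1 and 7 of those in a single library. mt-Tv had 12 reads and mt-Td 11. mt-Tq, mt-Th, mt-Tn, mt-Tk, mt-Ts1, mt-Ta, mt-Tt, mt-Tc and mt-Tr had 1 to 6 reads each, and mt-Te had a total of 57.5 normalised reads. Differences between groups were not detectable at these read counts for these 14 genes, and none is described further.

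The implied error of the protein genes was like that of other abundant genes. Their median implied standard error of a log2 fold change was 0.0924, against 0.0917 for the 275 other genes with a total of at least 100000. In percent of the level, the spread that the p-values imply had a median of 7.84%, from 5.70% for mt-Co1 to 25.4% for mt-Atp8. It is no measured spread of the mice compared. For the protein genes the implied errors of G3 against G1 and G4 against G2 differed by 0.0001 at most, although the mice differ. mt-Atp8 stood apart with a standard error of 0.299, although the overlapping mt-Atp6 had 0.107. A log2 difference of about 0.13 was enough to reach an unadjusted p of 0.05 for mt-Co1.

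**Figure D3:**
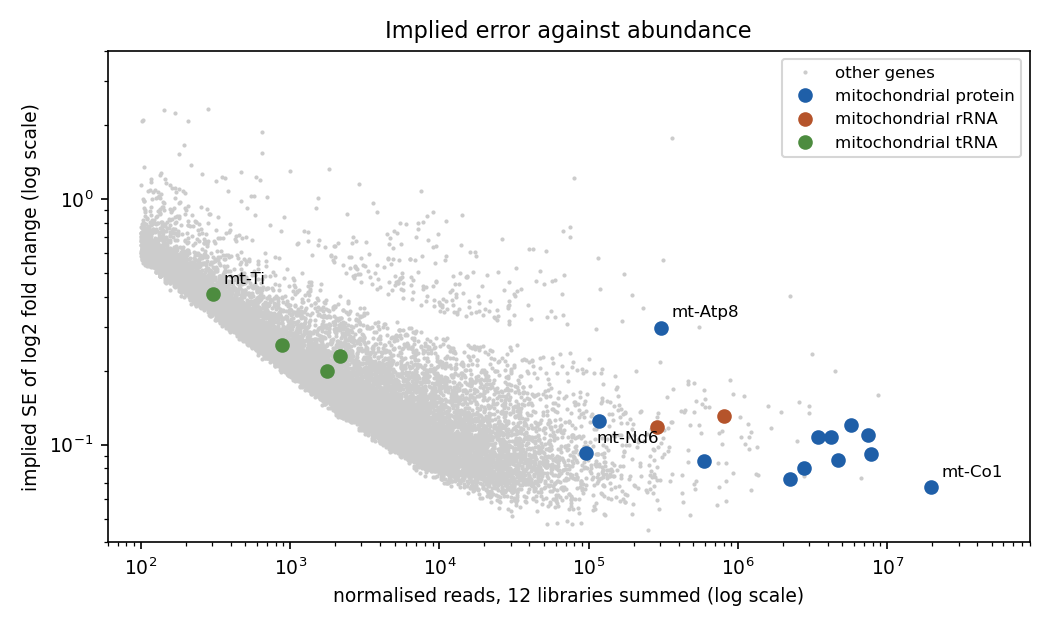
Implied standard error of the log2 fold change (log scale) against normalised reads summed over 12 libraries (log scale), for genes with a total of at least 100. Grey points are other genes and coloured points are members. mt-Co1 lies at 0.067 at the far right, and mt-Atp8 lies at 0.299, above the other protein genes.

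The share of mitochondrial reads differed by under 3 percentage points between groups. Members took 19.5%, 18.5%, 21.2% and 21.1% of normalised reads from G1 to G4, by group means rebuilt from the totals and fold changes. G3 and G4 were the higher pair and G2 was the lowest. Complex I genes took 7.43%, 7.04%, 8.11% and 7.99%, complex IV genes 8.00%, 7.65%, 8.66% and 8.67%, and mt-Cytb 2.48%, 2.41%, 2.71% and 2.74%. The nuclear gene CT010467.1, which holds rRNA sequence, took 3.55%, 2.76%, 3.46% and 1.80% of reads in the same order, and its part in these shares is shown by leaving it out of the denominator, which gave 20.2%, 19.1%, 22.0% and 21.5%. These shares are descriptions with no test, and in whole muscle more cells of a type and more RNA per cell cannot be told apart.

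**Figure D4:**
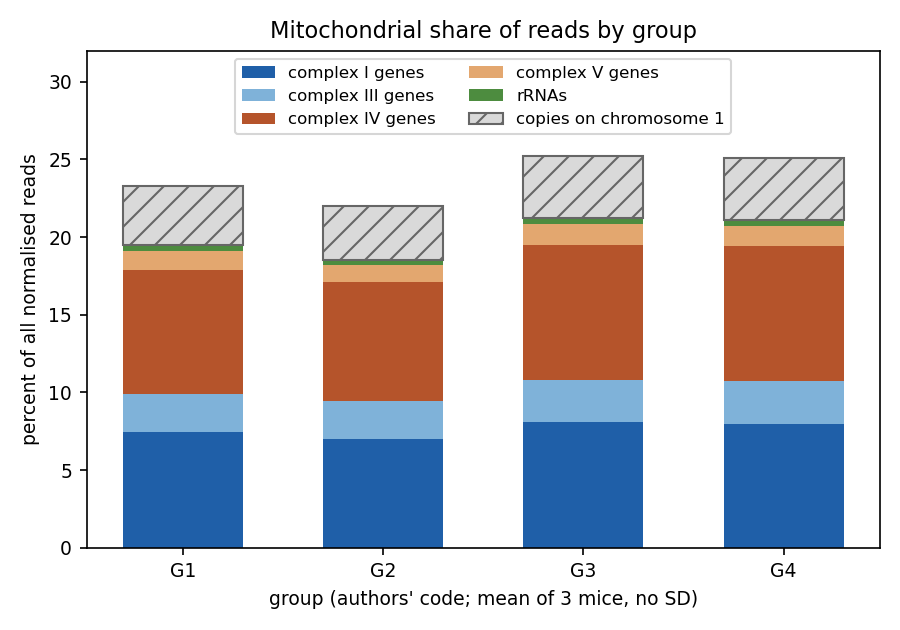
Percent of all normalised reads held by mitochondrial genes of each complex and by the rRNAs (stacked bars from 0) in groups G1 to G4, with the copies on chromosome 1 hatched on top. Without the copies the bars reach 19.5%, 18.5%, 21.2% and 21.1%, and with them 23.3%, 22.0%, 25.2% and 25.1%.

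In the comparison of G4 with G2 every protein gene had a positive log2 fold change, but by the authors' deposited table none had an adjusted p under 0.05, where 1.38% of genes with an adjusted p did. The median over the 13 genes was 0.21, against 0.00 over all 15494 genes with a total of at least 100, of which 50.1% were above 0. At an unadjusted p of 0.05, 10 of the 13 were higher in G4, where the background of higher genes was 5.23%. The genes of a strand share a precursor, so they are not independent of each other.

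mt-Co1 came nearest to the threshold. Its rebuilt group means were 1585456, 1493865, 1750587 and 1727446 normalised reads per library from G1 to G4, so that both G3 and G4 were above G1 and G2. The authors' deposited table gives it a log2 fold change of 0.21 for G4 against G2 (implied standard error 0.067, adjusted p = 0.0934). The other subunits of cytochrome c oxidase had close values in the authors' deposited table, 0.20 for mt-Co2 with an adjusted p of 0.206 and 0.23 for mt-Co3 with 0.140.

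Complex I genes spread from 0.10 for mt-Nd6 to 0.28 for mt-Nd3 in the authors' deposited table for G4 against G2. Rebuilt group means of mt-Nd4, a proton-pumping subunit, were 596533, 550138, 667223 and 646470 reads per library from G1 to G4, and those of mt-Nd2 were 331965, 310349, 384833 and 374777. Both genes were lowest in G2 and highest in G3. Their log2 fold changes of G4 against G2 in the authors' deposited table were 0.23 and 0.27, with implied standard errors of 0.109 and 0.107. mt-Nd6, from the other strand, had 8183, 7331, 8435 and 7878 reads per library, and its 0.10 had an interval from -0.08 to 0.29.

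mt-Cytb, the complex III subunit that carries the quinone sites, had rebuilt group means of 618024, 589366, 685857 and 683601 reads per library from G1 to G4. The authors' deposited table gives it a log2 of 0.21 for G4 against G2 (adjusted p = 0.354). For complex V, mt-Atp6 had 0.27 with a standard error of 0.107, and mt-Atp8 had 0.45 with 0.299 in the authors' deposited table. The larger value of mt-Atp8 had the wider interval, from -0.13 to 1.04, which includes the value of mt-Atp6.

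Neither rRNA gene was called. mt-Rnr2 had 0.15 with a standard error of 0.131 and mt-Rnr1 0.01 with 0.118 for G4 against G2 in the authors' deposited table. Endothelial and erythroid markers were above 0 in 7 of 7 and 6 of 6 genes of this comparison, skeletal muscle markers in 1 of 8, adipocyte markers in 3 of 5 and macrophage markers in 1 of 6, where 50.1% of all genes were. The muscle marker above 0 was Mb, at 0.17, and the lowest were Myh7 at -0.37 and Tnnt1 at -0.25. None of these markers was called, and their part in the mitochondrial values was not tested. The nuclear gene CT010467.1 fell by 0.59 on the log2 scale here and was called in the authors' deposited table (adjusted p = 0.0203).

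**Figure D5:**
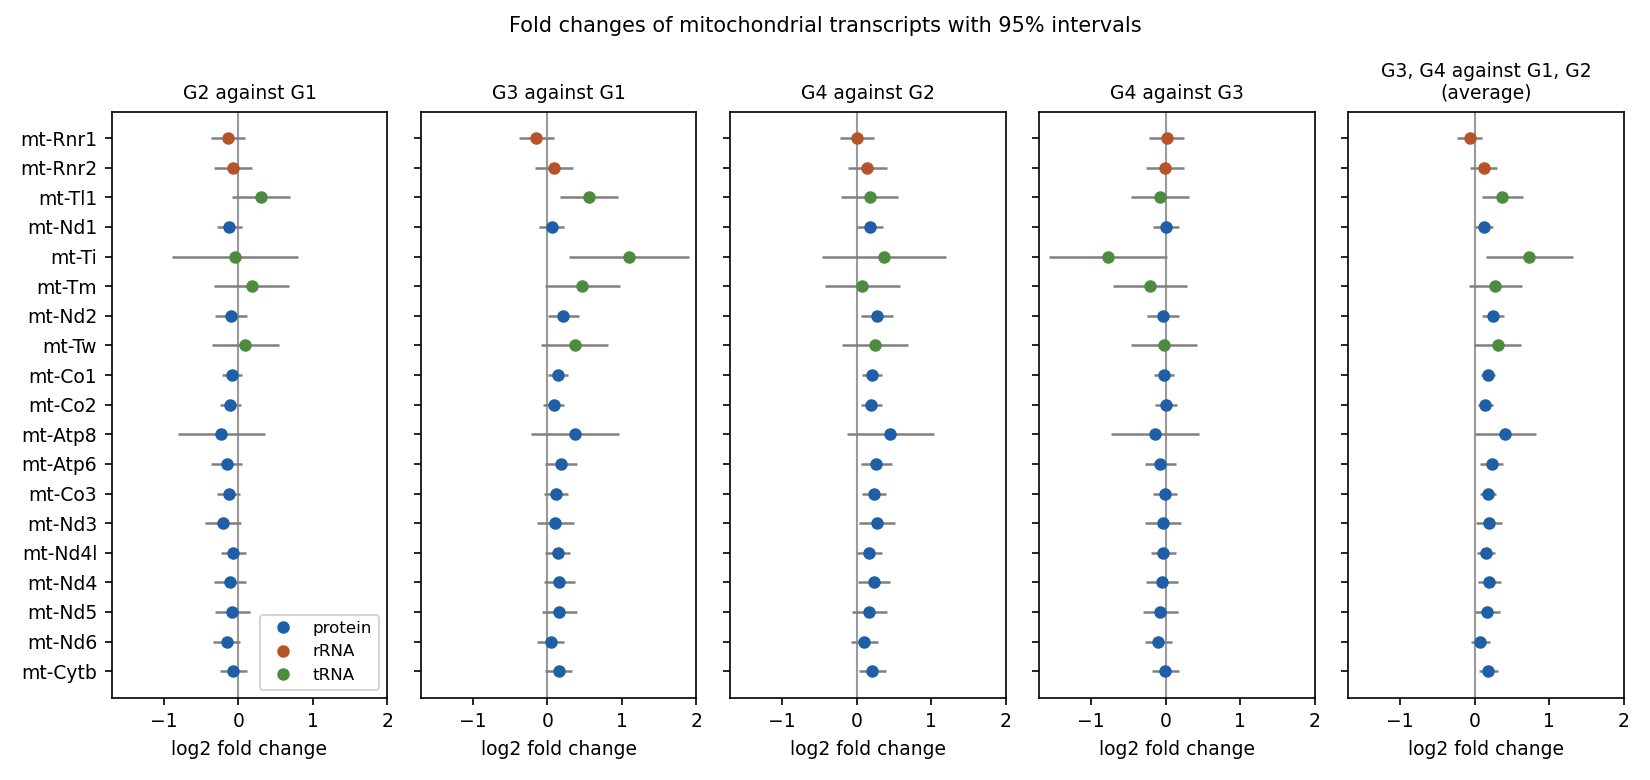
Log2 fold change (points) with 95% intervals from the implied standard error (lines) for 19 members in genome order, in the 4 deposited comparisons and in the average of G3 against G1 and G4 against G2. Protein genes sit right of 0 in the panels of G3 against G1, G4 against G2 and the average, and left of 0 for G2 against G1. The widest intervals are those of mt-Ti, followed by mt-Atp8.

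G3 against G1 gave the same direction with smaller values. No member was called in the authors' deposited table, where 0.21% of genes were, and all 13 protein genes were above 0 with a median of 0.14, where 50.1% of all genes were above 0. At an unadjusted p of 0.05, 2 protein genes were higher, mt-Co1 at 0.14 and mt-Nd2 at 0.21, where the background of higher genes was 2.9%. The smallest values in the authors' deposited table were 0.04 for mt-Nd6 and 0.06 for mt-Nd1, and mt-Rnr1 was at -0.15.

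2 tRNA genes had an unadjusted p under 0.05 in G3 against G1. mt-Tl1 had rebuilt group means of 115, 143, 170 and 161 reads per library from G1 to G4, and mt-Ti had 19.0, 18.4, 40.7 and 23.8. mt-Ti was highest in G3, and mt-Tl1 was lowest in G1. Their log2 fold changes in the authors' deposited table were 0.56 and 1.10, with adjusted p of 0.734 and 0.884, so neither passed. mt-Tm and mt-Tw had 0.47 and 0.36 there, with implied standard errors of 0.255 and 0.228.

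G2 against G1 put all 13 protein genes below 0, with a median of -0.12 and 0 called in the authors' deposited table, where 0.00639% of genes were called. The values ran from -0.23 for mt-Atp8 to -0.07 for mt-Nd4l and mt-Cytb, and 0 of 13 had an unadjusted p under 0.05, where 1.26% of genes were lower at that p and 49.7% of all genes were above 0. That table leaves out every gene with a log2 above 0, among them 10 tRNA genes. For mt-Tl1, mt-Tm and mt-Tw the rebuilt values were 0.31, 0.18 and 0.09. G2 against G1 shares its G2 libraries with G4 against G2 and its G1 libraries with G3 against G1, so the signs are not independent.

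Markers of other cell types also lay below 0 for G2 against G1. This held for 6 of 6 erythroid genes with a median of -0.67, 5 of 5 adipocyte genes with -0.77, 6 of 6 macrophage genes with -0.28 and 7 of 7 endothelial genes with -0.10. At an unadjusted p of 0.05, 3 of the erythroid genes were lower, where 1.26% of all genes were, and 3 of 8 skeletal muscle markers were higher, where 1.09% of all genes were. The rebuilt log2 values were 0.49 for Myh7, the slow myosin heavy chain, 0.42 for Tnni1 and 0.32 for Tnnt1, both slow troponins. The other muscle markers were nearer to no difference. Mb and Ckm lay below 0, at -0.09 and -0.08, and Acta1, Actn2 and Myh2 had 0.09, 0.07 and 0.05. No marker listed in that comparison was called, 6 of the 8 muscle markers are not listed there, and the part of all these markers in the mitochondrial values was not tested.

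G4 against G3 had the median of the protein genes closest to 0. It was -0.03, 2 of 13 were above 0, namely mt-Nd1 and mt-Co2 at 0.00 and 0.01, where 50.9% of all genes were, and 0 members were called in the authors' deposited table, where 0.0394% of genes were. None of the 19 members had an unadjusted p under 0.05, where 2.48% of genes were lower at that p and 365 of 15494 were higher. With group totals of all genes made equal 4 were above 0, and with totals taken without members and CT010467.1 0 were. The interval of mt-Co1 ran from -0.15 to 0.11 around its -0.02, so a larger difference in either direction lies outside it. Among the tRNA genes mt-Ti had -0.78 in the authors' deposited table, with an unadjusted p of 0.0562. The nuclear genes CT010467.1, at -0.96 (adjusted p = 2.48e-05), and Mir6236, at -0.88 (0.0017), were called lower in this comparison in the authors' deposited table. So was Lars2, the nuclear gene of the mitochondrial leucyl-tRNA synthetase, at -0.81 (0.00834). These genes had been listed beforehand as rRNA-related, but rRNA sequence in Lars2 was not searched for. Their part in the mitochondrial values was not tested beyond the scalings given.

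Whether the difference of G4 from G2 was unlike that of G3 from G1 was tested as their difference on the log2 scale. No member was called, where 0.00645% of genes were, and the protein genes had differences from 0.01 to 0.17 with a median of 0.07. At an unadjusted p of 0.05, 0 of the 19 members passed, against 4.12% of genes, so the 2 comparisons were not shown to differ in any member. On simulated counts this test called 1 of 100 genes with a 1.2-fold interaction and 53 of 100 with a 2-fold one. It could therefore miss a difference of the size seen here.

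Both comparisons share no group, so their average was also tested, a choice made after the data were seen. All 13 protein genes were above 0, from 0.07 for mt-Nd6 to 0.41 for mt-Atp8, with a median of 0.18. 9 of them had an unadjusted p under 0.05, where 5.56% of genes were higher at that p. After Benjamini-Hochberg adjustment over 15494 genes with implied standard errors, mt-Co1 alone was called, where 1.65% of genes were. Its average log2 was 0.18 with a standard error of 0.047, an interval from 0.08 to 0.27 and an adjusted p of 0.018, a 1.13-fold difference. mt-Nd2 followed with an adjusted p of 0.070 and mt-Co3 with 0.0897. With the groups scaled to equal totals of all genes the adjusted p of mt-Co1 was 0.0735, which ends that call. Those totals include the members' own reads. With totals taken without members and CT010467.1 the adjusted p was 0.0128, and over genes with a total of at least 10 it was 0.0239. The call therefore depended on the scaling. The other average, of G2 against G1 with G4 against G3, called 0 members, where 0.0452% of genes were called, and mt-Nd6 alone of the protein genes had an unadjusted p under 0.05, at 0.0492, where 3.12% of genes did.

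Log2 fold changes of the copies on chromosome 1 equalled those of their genes in some pairs and not in others. Gm28437 and Gm10925 had log2 fold changes of 0.23 and 0.27 for G4 against G2 in the authors' deposited table, as mt-Co3 and mt-Atp6 did. Each of these copies held 50.0% of its pair in every group. Their equal values therefore follow from the even split of reads and give no separate information on the copies. Gm10222 had 0.03 there and mt-Nd4l 0.17, and the sum of both reads gave 0.12. Gm29216 had -0.01 for G3 against G1 in the authors' deposited table and mt-Co1 0.14, and their sum gave 0.13. Gm28439, with 644 reads in all, had 4.56 for G4 against G2 in the authors' deposited table, where mt-Nd4 had 0.23. Its implied standard error was 1.91 and its adjusted p 0.338. For G2 against G1 the authors' deposited table gives it -2.83 and mt-Nd4 -0.12. None of the copies was called in any comparison.

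Nuclear genes that make or process mitochondrial RNA were compared next. Of a list of 53 such genes 52 were measured, and 0 were called in any of the 4 comparisons. The list holds no aminoacyl-tRNA synthetases, so Lars2, called lower for G4 against G3, is not part of it. At an unadjusted p of 0.05, 1 was higher for G3 against G1, 2 were lower for G4 against G2 and 2 were lower for G4 against G3, where 2.9%, 3.83% and 2.48% of all genes were. For G4 against G2, 32 of 52 were above 0 with a median of 0.02, and for G3 against G1, 26 of 52 with a median of 0.00, where 50.1% of all genes were above 0 in each. Polrmt, the RNA polymerase, had 0.05 and Tfam, which packages the DNA and starts transcription, had 0.08 for G4 against G2 in the authors' deposited table. Lrpprc and Slirp, which stabilise mitochondrial mRNAs as a complex, had 0.01 and 0.04, and Tefm, the elongation factor, had -0.11 in the authors' deposited table. Pnpt1, an exoribonuclease of mitochondria, was at -0.00 there.

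Nuclear subunits of complexes I to V, including those of the wholly nuclear complex II, numbered 27 in the list and were all measured. Of these, 7 were above 0 for G3 against G1 with a median of -0.03, while all 13 mitochondrial protein genes were. For G4 against G2, 26 of 27 were above 0 with a median of 0.06, and for G4 against G3, 24 of 27 with 0.06, where 2 of the mitochondrial genes were. Over all genes the shares above 0 were 50.1%, 50.1% and 50.9% in these 3 comparisons. By the authors' deposited table none of them was called, and at an unadjusted p of 0.05, 2 were higher for G4 against G2, where 5.23% of all genes were, and 1 was lower for G2 against G1, where 1.26% were. Uqcrfs1, the Rieske iron-sulfur protein of complex III, came nearest for G4 against G2 with a log2 of 0.24 in the authors' deposited table (adjusted p = 0.0603). The difference between the nuclear and the mitochondrial sets was not tested.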

How the data were processed

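RNA of soleus from 12 mice, 3 in each of 4 groups, was sequenced, and the labels name separate animals. The submitters' processing notes name RSEM 1.2.15, Bowtie2 2.1.0, edgeR without a version, and the build as mm10 and GRCm38, with no role or order for any of them. RSEM shares out reads that match several transcripts, which bears on the genes with nuclear copies. The totals the authors deposited are a signal, reads divided by size factors and summed over libraries. The authors deposited p-values, step-up adjusted p-values (blank for 14458 genes of G4 against G2 and 11245 of G4 against G3, and left blank), signed fold changes as a score and their log2 values.

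The tables hold no values per library, so the planned edgeR test could not be run and the deposited p-values were used. Standard errors were implied from each log2 and p under a normal distribution. Values of G2 against G1 above 0 are not listed in that table and were rebuilt from the other 3 comparisons, which matched 7792 listed genes within 1e-14. Group means were rebuilt from totals and fold changes. Interaction and average were adjusted by Benjamini-Hochberg over genes with a total of at least 100. Whole reads of low totals were solved from the worth of 1 read in each library. The rebuilding, the solving, the interaction and the average were tested on simulated data. There the average called 26 of 100 genes changed 1.2-fold and 82 of 100 changed 2-fold. Copies were searched with blastn 2.17.0, and coordinates are 1-based. Python 3.11.15 with scipy 1.17.1 was used. Intervals are 95% and cover the spread between mice only as the p-values imply it.

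All members may be named. Of other genes, copies with a total of at least 100, list genes called in any comparison and 6 fixed machinery genes were to be named. CT010467.1, Mir6236 and Lars2 were to be named as rRNA-related genes, and Uqcrfs1 was named after its value was seen. The members and the lists were chosen with earlier results of these data known.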

Additional observations from a re-analysis of the deposited data

How the results depend on the processing

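Medians of the 13 protein genes kept their sign under the 6 alternatives run for each comparison (other scalings, weighting by reads, nuclear copies added, overlapping genes left out), with ranges of -0.12 to -0.09 for G2 against G1, 0.11 to 0.15 for G3 against G1, 0.19 to 0.22 for G4 against G2 and -0.05 to -0.02 for G4 against G3. At an adjusted p of 0.1, 1 member was called for G4 against G2 (mt-Co1, 0.0934), 1 nuclear partner (Uqcrfs1, 0.0603), and 3 members in the average of G3 against G1 and G4 against G2. That average called 0 members with equal group totals of all genes, and 1 with totals taken without members and CT010467.1. Over genes with a total of at least 10 it also called 1. Mitochondrial shares in G1, G2, G3 and G4 were 20.2%, 19.1%, 22.0% and 21.5% without the rRNA gene in the denominator, 19.1%, 18.2%, 20.9% and 20.7% for protein genes only, and 23.3%, 22.0%, 25.2% and 25.1% with the 7 copies on chromosome 1, an alternative chosen after seeing the data, as were the average and its settings. Leaving out a replicate was not possible without values per library. No paired analysis was possible because the labels give no shared replicate number and no library has its own column. Low read counts limit 14 tRNA genes, which had totals below 100.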
